A study of Drosophila melanogaster with 33 samples.

Results

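To ask what the Lsm domain of Ataxin-2 (Atx2) contributes to the choice of its mRNAs, edited positions were compared between fly brains that expressed Atx2 without this domain (Atx2∆Lsm) and brains that expressed wild-type Atx2, each joined to the editing domain of ADAR (ADARcd). The sites described here were listed in both Atx2∆Lsm libraries and were not listed in both Atx2 WT libraries. There were 276 such sites, out of 478 sites common to the Atx2∆Lsm libraries and 1984 positions listed in any of the 12 TRIBE libraries. The other 202 Atx2∆Lsm sites were common to both WT libraries as well and serve as the comparison set. The sites were chosen by the lists of edit percents of Atx2∆Lsm and WT, so their values in these libraries are a description and were not tested.

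All TRIBE brains carried a UAS transgene inserted on the second chromosome and driven by elav-Gal4 in postmitotic neurons, with tub-Gal80ts keeping it off until adulthood, and every library pooled dissected adult brains. There were 2 libraries for each of Atx2 WT, Atx2∆Lsm, Atx2∆LsmAD (without the Lsm-associated domain), Atx2∆mIDR and Atx2∆cIDR (without the middle or the C-terminal intrinsically disordered region), and Lsm+LsmAD (only these 2 domains). The crosses carried no allele that removes endogenous Atx2. The WT libraries were sequenced without strand information and with longer reads than the libraries of the altered forms, so the WT protein and the WT library type cannot be told apart. Gene counts came from 3 Gal4 control (Control_GAL4) and 3 Atx2 RNAi (elav-Gal4, UAS-Atx2-RNAi, tub-Gal80ts) brain libraries and from S2 cells (S2R+), an embryonic Drosophila cell line, with 3 mock (GFP double-stranded RNA) and 3 Atx2 RNAi libraries. Libraries with only the driver or only the UAS-Atx2 transgene, which show edits that need no fusion protein, were not analysed here.

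In TRIBE, ADARcd deaminates adenosines close to where its fusion partner binds, and the resulting inosines appear as A-to-G changes in the reads. Atx2 is a conserved regulator of mRNA translation and stability. Its Lsm domain resembles the RNA-binding fold of Sm proteins, its PAM2 motif binds the poly(A)-binding protein, and its disordered regions take part in the assembly of ribonucleoprotein granules. The authors listed a position when at least 20 reads covered it and at least 15% of them were edited. The lists give a percent and no read number, so the precision of a single percent is unknown, and a position missing from a list may have been edited less or read too seldom.

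The sites not common in WT were edited at lower levels than the sites shared with WT. Their mean edit percent over the Atx2∆Lsm libraries ran from 15.1 to 87.4 with a median of 22.2, compared with a median of 28.9 for the shared sites. Of the 276 sites, 98 (35.5%) had a mean under 20% and 47 (17%) had a mean over 30%, and the corresponding shares of the shared sites were 11.9% and 43.6%. The percents of the 2 Atx2∆Lsm libraries differed by a median of 5.4 percentage points, and in 26 sites they differed by more than 15 points. Both libraries listed many other positions alone, 462 in replicate 1 and 406 in replicate 2, with medians of 19.4% and 18.2%. The sites just inside the minimum were CG8289 (15% and 15.2% in replicates 1 and 2), CG13594 (15.4% and 15.5%) and Syt7, a synaptotagmin of slow vesicle release (15.5% and 15.6%).

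**Figure D1:**
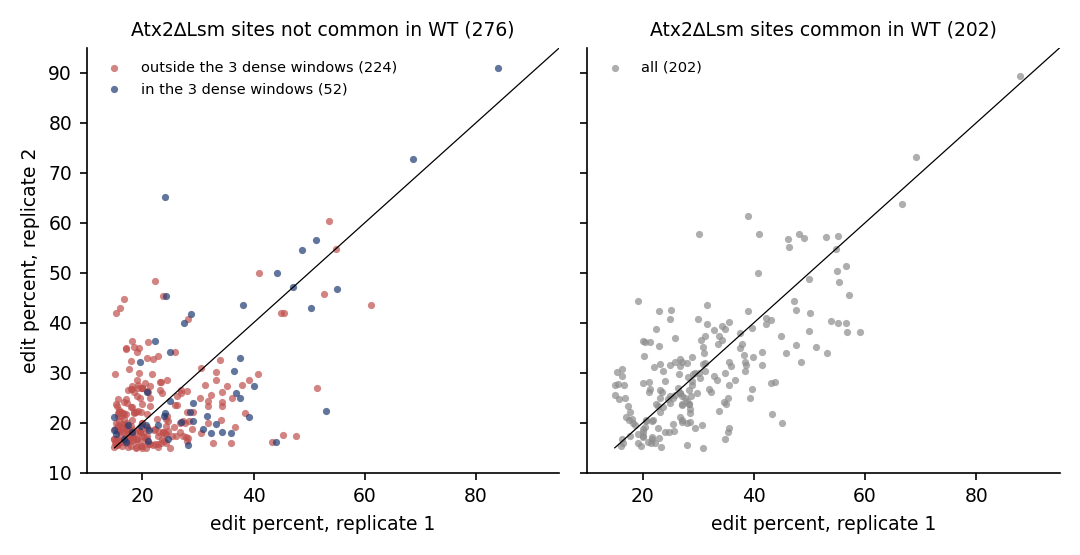
Edit percent of each site in Atx2∆Lsm replicate 1 (x axis) and replicate 2 (y axis), with the line of equal values. The 276 sites not common in WT (left, 52 of them in 3 windows of 1 Mb shown in blue) crowd near the minimum, with a median of 22.2%, while the 202 shared sites (right) reach higher values, with a median of 28.9%.

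The highest edit percents lay in a stretch of chromosome arm 3L. CG7967 (Vta1, a protein of the endosomal sorting pathway) held the top positions, both in its coding sequence. At 3L:1652568 on dm6, the percents were 83.9 and 90.9 in Atx2∆Lsm replicates 1 and 2, and at 3L:1652463 they were 68.6 and 72.7. Neither position was listed in a WT library, and both were listed in both Atx2∆mIDR libraries and in Atx2∆LsmAD replicate 1. Next came Glut4EF, a transcription factor gene, at 3R:9992707 in the 3′UTR with 53.5% and 60.3%, and ps (pasilla, a splicing regulator) at 3R:9441506 in the coding sequence with 54.9% and 54.8%. The transcripts of Psa, a puromycin-sensitive aminopeptidase (intron, 3L:1504296), reached 51.2% and 56.5%, and those of CG7971 (Srrm234, a splicing factor of the SRRM family) at 3L:1658048 in the 3′UTR reached 48.7% and 54.5%. CG7852 (pns, 3′UTR, 3L:1543676) had 44.3% and 50%. The adhesion gene beat-IIa, of the Beaten path family of axon guidance proteins, had 52.6% and 45.7% at 3R:17345962 in its 5′UTR. Of the 10 sites with the highest mean percent, 6 lay between 1 and 2 Mb of arm 3L and 1 was listed in a WT library. That site, in the 3′UTR of Syt12 (another synaptotagmin, X:13367889), had 61.1% and 43.6% in Atx2∆Lsm and 34.6% in WT replicate 2.

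Of the 276 sites, 199 were listed in neither WT library and 77 were listed in 1 of them, 42 in replicate 1 and 35 in replicate 2. The WT percents of these 77 sites were mostly close to the minimum, with a median of 18.0 and a range of 15 to 45.5. The WT percent was below both Atx2∆Lsm percents in 42 sites, between them in 25 and above both in 10. The highest was RpL10, a ribosomal protein of the large subunit (3′UTR, 3L:23093360), with 45.5% in WT replicate 2 beside 45.5% and 41.9% in Atx2∆Lsm. CG4199 (X:2066779) followed with 36.5% in WT replicate 2 and 34.3% and 23.3% in Atx2∆Lsm. The kinesin adaptor syd (3L:7926335) had 36.45% in WT replicate 2, above both Atx2∆Lsm percents of 18.45 and 35.1. All 77 were kept as sites not common in WT because the other WT library did not list them.

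Atx2∆LsmAD and Atx2∆mIDR listed a smaller share of the sites not common in WT than of the shared sites. Atx2∆LsmAD listed 64 and 89 of the 276 sites in its 2 libraries and 38 (13.8%) in both, compared with 101 of the 202 shared sites (50%). Atx2∆mIDR listed 88 and 39 sites and 29 (10.5%) in both, compared with 99 shared sites (49.0%). For Atx2∆cIDR the numbers were 14 and 17 and 11 in both (3.99%), close to the 7 shared sites in both (3.47%). In Lsm+LsmAD the order turned round, since 20 and 18 sites were listed, 9 of them (3.26%) in both libraries, whereas 0 of the 202 shared sites was listed in either library, with an upper 95% Wilson limit of 1.87%. Of these 9 sites 8 lie in 3 windows of 1 Mb on arm 3L, and without those windows 1 of 224 sites (0.446%) was common to Lsm+LsmAD. In all, 116 sites (42.0%) were listed in no library of the 4 other forms, compared with 13 of the shared sites (6.44%). The shared sites had passed the minimums in both WT libraries as well and lay further above the minimum percent. A larger share of them in further libraries can therefore be built into the choice of the 2 sets. Members of a list share their libraries, and 2 libraries against 2 cannot give an exact permutation p under 0.333, so these shares were not tested.

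**Figure D2:**
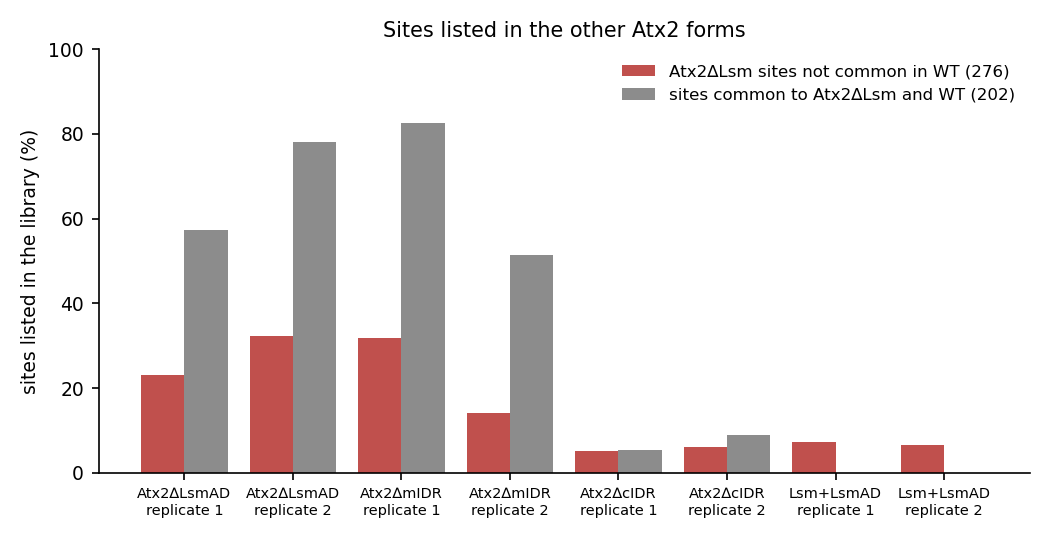
Percent of sites listed in each library of the 4 other Atx2 forms (y axis), for the 276 Atx2∆Lsm sites not common in WT and the 202 sites common to Atx2∆Lsm and WT. Bars run from 5.07% to 32.2% for the first set and from 0 to 82.7% for the second, and the Lsm+LsmAD libraries listed sites of the first set and none of the second.

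In the 38 sites common to Atx2∆LsmAD the median was 21.9% there and 24.5% in Atx2∆Lsm, and the mean was lower in 28 of the 38, but only in 10 were both Atx2∆LsmAD percents below both Atx2∆Lsm percents. In the 29 sites common to Atx2∆mIDR the medians were 25.4% and 26.6%, and the mean was lower in 18, with both percents below in 9 and both above in 4. In the 11 sites common to Atx2∆cIDR the medians were 29.9% and 34.5%, and the mean was lower in 9, with both percents below in 6. The 9 sites common to Lsm+LsmAD went the other way, with medians of 29.95% and 25.85% and only 1 site with a lower mean, and both percents were above in 2.

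A small group of sites persisted without the C-terminal disordered region. Glut4EF had 56.5% and 42.4% in Atx2∆cIDR, ps had 43.4% and 45.6%, and alpha-Man-II, a Golgi mannosidase of N-glycan processing (3′UTR, 3R:9416763), had 45.5% and 38.6% beside 41.0% and 50% in Atx2∆Lsm. CG8176 (coding sequence, 3R:9525980) had 28% and 33.8%. These 4 sites lie in the window from 9 to 10 Mb of arm 3R, and each was also listed in both Atx2∆LsmAD libraries and in Lsm+LsmAD replicate 2. The other sites common to Atx2∆cIDR were in CG5687, CG12093 (2 sites), Akh, CG6024 (loaf), Klp68D (a kinesin motor) and RpL10. Akh, which encodes the adipokinetic hormone that mobilises stored energy, had 18.6% and 16.9% in Atx2∆cIDR and 26.3% and 25.3% in Atx2∆Lsm at 3L:4142009 in its 3′UTR. The percents of Klp68D in Atx2∆cIDR (25.0 and 37.8) overlapped those in Atx2∆Lsm (31.8 and 20).

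Lsm+LsmAD keeps the domain that Atx2∆Lsm lacks, and 9 sites were common to both forms and not to WT. Of these, 7 were in coding sequence and 8 lay on arm 3L, between 2 and 3 Mb or between 9 and 10 Mb. CG12093 held a pair of them, listed in all 10 libraries of the 5 altered forms. At 3L:2773176 its percents were 25.0 and 24.4 in Atx2∆Lsm, 43.1 and 21.7 in Atx2∆LsmAD, 32.4 and 43.6 in Atx2∆mIDR, 17.5 and 23.4 in Atx2∆cIDR, and 32.6 and 27.3 in Lsm+LsmAD. The others were in CG16758, CG9977 (AhcyL1, related to S-adenosylhomocysteine hydrolase), mRpS35 (a mitochondrial ribosomal protein), CG6707, a position shared by CG42245 and MEP-1, a position shared by CG14164 and CG6709, and Gip on the X chromosome. CG16758 (3L:2500030) had 37.6% and 33.1% in Atx2∆Lsm and 39.0% and 34.9% in Lsm+LsmAD. The site in mRpS35 (5′UTR, 3L:2781005) had 52.5% and 23.7% in Lsm+LsmAD and 36.8% and 26.0% in Atx2∆Lsm.

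The highest percents in Atx2∆LsmAD and in Atx2∆mIDR fell mostly on different sites, and of the 5 highest common sites of each form only CG12093 at 3L:2773176 was in both. Among the sites common to Atx2∆LsmAD, Tequila, a multidomain secreted serine protease (3L:9074753, its symbol not matched to the annotation), had the highest mean there, with 34.0% and 35.7% beside 53.0% and 22.4% in Atx2∆Lsm. In Atx2∆mIDR the 5 highest were the 2 sites in CG7967, with 39.1% and 58.8% at the higher one, the 2 in CG12093, and Atpalpha, the catalytic subunit of the sodium pump (intron, 3R:20971206), with 48.7% and 39.2%. The Atpalpha percents in Atx2∆Lsm were lower, at 27.3 and 20.4.

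The sites were not spread evenly. They fell into 100 windows of 1 Mb, and 3 windows, all on arm 3L, held 10 or more each, namely 28 between 1 and 2 Mb, 10 between 2 and 3 Mb and 14 between 9 and 10 Mb. Together these held 52 sites (18.8%) but only 4 of the shared sites (1.98%) and 2.81% of the genes tested in brain. Outside them no window held more than 7 sites, and no window held more than 9 shared sites. The 52 sites had higher percents (median 26.5%) than the other 224 (median 21%), and 2 of the 52 were listed in a WT library, compared with 75 of the 224. Positions common to both libraries of another altered form, some of them among the 52, also lay in these windows. Between 1 and 2 Mb, Atx2∆LsmAD, Atx2∆mIDR, Atx2∆cIDR and Lsm+LsmAD had 4, 8, 7 and 0. Between 2 and 3 Mb they had 6, 6, 4 and 13, and between 9 and 10 Mb 15, 3, 0 and 2. Their common positions numbered 222, 198, 47 and 42 in all, so such windows were not particular to Atx2∆Lsm. The window size and the minimum of 10 were chosen after the positions were seen.

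**Figure D3:**
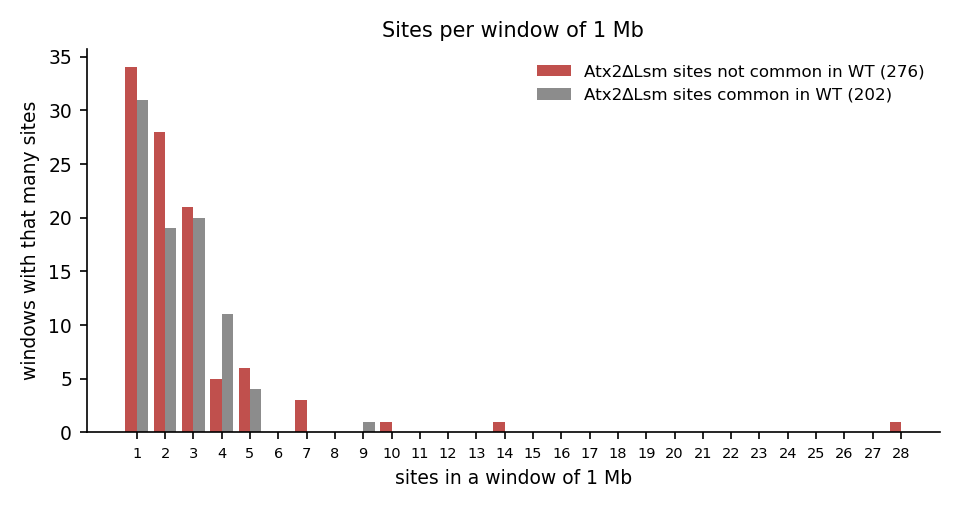
Number of 1 Mb windows (y axis) that hold a given number of sites (x axis), for Atx2∆Lsm sites not common in WT and for sites common in WT. The 3 windows with 10, 14 and 28 sites hold only sites of the first kind at such density, while the fullest window of shared sites holds 9.

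The other forms listed part of the sites of each window, and unevenly. Of the 28 sites between 1 and 2 Mb of arm 3L, Atx2∆LsmAD replicate 1 listed 11 and replicate 2 listed none, and each Atx2∆mIDR library listed 8. The Atx2∆cIDR libraries listed 2 each, and the Lsm+LsmAD libraries listed none and 1. Of the 14 sites between 9 and 10 Mb, the Atx2∆LsmAD libraries listed 8 and 11 and the Atx2∆mIDR libraries 3 and 1. Of the 10 sites between 2 and 3 Mb, the Lsm+LsmAD libraries listed 7 and 6. Over all 276 sites the shares were 23.2% and 32.2% in Atx2∆LsmAD, 31.9% and 14.1% in Atx2∆mIDR, and 7.25% and 6.52% in Lsm+LsmAD. The 2 Atx2∆LsmAD replicates thus differed most in the window between 1 and 2 Mb. Without the 3 windows, the share common to each of Atx2∆LsmAD, Atx2∆mIDR and Atx2∆cIDR stayed within the counting interval of the share over all sites. Why sites gather in these windows was not tested.

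Arm 3L held 84 of the 276 sites (30.4%), compared with 21.3% of the shared sites. The other sites were on 3R (73), X (44), 2R (44), 2L (29) and chromosome 4 (2). By the annotation, 156 sites (56.5%, 95% Wilson interval 50.6 to 62.2, counting error only) lay in 3′UTRs, 104 (37.7%, 32.2 to 43.5) in coding sequence, 10 in 5′UTRs and 5 in introns, and 1, in Tequila, could not be placed because its gene symbol was not matched. The shared sites were more often in 3′UTRs (76.7%, 70.4 to 82.0) and less often in coding sequence (19.8%, 14.9 to 25.8). The 77 sites listed in 1 WT library stood close to the shared sites, with 72.7% in 3′UTRs and 22.1% in coding sequence. The 199 sites listed in neither WT library had 50.3% and 43.7%. In the 3 dense windows 27 of 52 sites were in coding sequence, and outside them 77 of 224 (34.4%) were. Within 3′UTRs, the sites had a median distance of 506 nt from the stop codon and a median 3′UTR length of 1316 nt, and the shared sites had medians of 657 nt and 1359 nt. All these values place 3′UTR before coding sequence. With the order reversed, 51.8% of the 276 sites lay in 3′UTRs and 42.4% in coding sequence, and the shared sites had 75.2% and 21.3%. The 199 sites in neither WT library then had 45.2% and 48.7%. The sites of CG7971 and CG7852 (3L:1543676) named above then fell in coding sequence.

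The 276 sites were in 259 genes, of which 236 held 1 site, 20 held 2, and only CG12004 (Tmep), CG7852 and Rab27 held 3 or more. Of these genes, 33 (12.7%) also held a site common to both WT libraries, which is 12.9% of the 256 genes with such a site. For the 40 sites in these genes, the nearest WT site in the gene was a median of 408 nt away, and 10 sites had one within 100 nt. CG12004 held 4 sites on arm 3L and none in WT, from 15.2% and 17.8% at 3L:1575611 to 50.3% and 43.1% at 3L:1572663. At its position 3L:1575517 the 2 libraries were far apart, at 24.1% and 65.2%. Rab27, a GTPase of regulated secretion, held 3 sites between 17% and 26.9% (X:1473958, X:1473978 and X:1474764) beside 3 sites common in WT. Vmat, which loads monoamines into synaptic vesicles, held 5 WT sites and 1 further site (3′UTR, 2R:13513737) with 18.3% and 17.2% in Atx2∆Lsm and 18.4% in WT replicate 1. Akh held 4 WT sites and 2 further sites, at 3L:4142003 and 3L:4142009. Ace (acetylcholinesterase) held 3 WT sites and 1 further site, and bol, prt, Octbeta3R, Lpin and Traf6 held 2 WT sites each. Atx2 itself held a site in its coding sequence at 3R:15414614, with 15.7% and 15.8%. Reads of the transgene and of the endogenous gene cannot be told apart there.

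The genes of these sites were mostly above the median brain level. A position is listed only where at least 20 reads cover it, so a high level is built into the choice of the sites and is no finding. All 259 are in the count tables, 10 of them with no read in any brain library, and 246 passed the filter on low counts. Per kb of transcript, the 245 with an annotated length had a median of 37.7 CPM (counts scaled to library size) per kb in the Gal4 control brains, with quartiles of 22.1 and 79.9. The median over all genes tested was 12.5 CPM per kb, and that of genes with WT sites only was 44.0. Of the 245, 225 (91.8%) were above the median level of all genes tested. The highest in CPM were Atpalpha, with 11736 to 13615 CPM in the 3 control libraries, Sap47, a synapse-associated protein (4184 to 4782), and sif, an exchange factor for Rac (4022 to 5053). The lowest were pre-mod(mdg4)-U (2.89 to 3.06), MEP-1 (1.79 to 5.78) and CG32373 (4.28 to 4.77). MEP-1 and CG42245 are both named for 1 position, and the pre-mod(mdg4)-U site is also that of 2 neighbouring gene models, so which of them was edited cannot be told apart. MEP-1 and CG42245 also have the same coordinates in the annotation. Reads that fall in more than 1 gene model may be counted for none of them. Low or missing counts of such genes may therefore not be low brain levels, which was not tested.

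In brain, the question was whether mRNAs with these sites change when Atx2 is reduced. The libraries held 11169973 to 14324466 counts in genes. Control replicate 1 stood apart, with 34.6% of its reads not assigned to a gene compared with 15.9% to 17.7% in the others. Atx2 itself had 287, 302 and 316 CPM in the control and 201, 252 and 264 CPM in the RNAi libraries. The groups did not overlap, but the log2 fold change of -0.34 ± 0.12 (SE) had an edgeR adjusted p of 0.0584, so the decrease did not pass the test. The summed marker levels of several cell types differed between the groups, while those of the hemocyte markers overlapped. The summed level of the 7 fat body markers was 1205 to 2004 CPM in the control and 11505 to 26469 CPM in the RNAi libraries. Of these 7 markers, 5 were higher and 1 was lower. The 9 neuron markers fell from 17204 to 19515 CPM to 12067 to 13301 CPM, with 7 of 9 lower. The 7 glia markers summed to 5804 to 7037 CPM and 4653 to 5565 CPM (4 lower, 1 higher), the 6 photoreceptor markers to 897 to 970 CPM and 1281 to 1562 CPM (3 higher), the 6 muscle markers to 257 to 281 CPM and 64.7 to 89.7 CPM (6 lower), and the 6 hemocyte markers to 662 to 1738 CPM and 1457 to 1734 CPM (3 higher). No marker of these lists was at 0 in all brain libraries. The 3 neuron markers nSyb, fne and Gad1 are themselves genes of these sites. In whole brains fewer cells of a type and less RNA per cell cannot be told apart, and the part of cell composition in the changes below was not tested.

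Of the 246 genes tested, 131 passed the edgeR test at an adjusted p under 0.05, of which 95 (38.6%) were lower and 36 (14.6%) were higher with Atx2 RNAi. Of all 9197 genes tested, 18.6% were lower and 23.1% were higher. The median log2 fold change was -0.19 over the genes of these sites and 0.06 over all genes. The libraries of the groups did not overlap in 111 genes that were lower (all genes 25.4%) and 48 that were higher (all genes 32.3%), and an exact permutation test of 3 libraries against 3 cannot give a p under 0.1. Scaling by library size alone gave 57 lower and 59 higher genes, beside 935 lower and 3119 higher among all genes. It moved the median of all genes up by 0.21 on the log2 scale and left the median of the genes of these sites 0.26 below it, as with the TMM scaling used here. The counts of lower genes fell to 29 without replicate 3 of both groups and to 53 without replicate 2, and were 97 without control replicate 1. The counts of higher genes were 9, 17 and 35 in the same order, and 22 and 20 without RNAi replicate 1 or 3 alone.

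Highly expressed genes were more often lower whether they held a site or not. When all genes tested were divided by brain level into 4 classes of equal size, in the highest class 54.7% of the 139 genes of these sites and 40.5% of all genes tested were lower. In the class below it the shares were 20.9% of 86 and 19.3%. In the highest class the genes with WT sites only had 53.1% of 130 lower, close to the genes of these sites. Genes whose sites all lie in 3′UTRs were lower in 67 of 135 cases (49.6%) and higher in 16. Genes whose sites all lie in coding sequence were lower in 16 of 87 cases (18.4%) and higher in 16. These shares were not divided by brain level, so the 18.6% lower among all genes is no like comparison for them. Of the 39 tested genes with sites only in the 3 dense windows, 10 were lower and 9 higher. Of all 256 tested genes that start in these windows, with or without a site, 17.6% were lower and 24.6% higher.

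**Figure D4:**
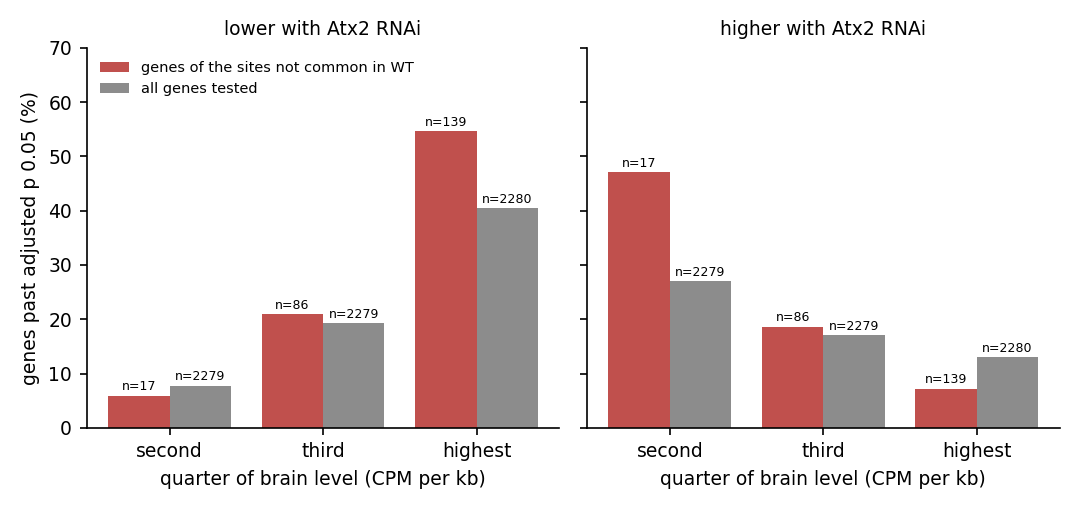
Percent of genes that were lower (left) or higher (right) with Atx2 RNAi in brain at an edgeR adjusted p under 0.05 (y axis), by class of brain level over all genes tested (x axis, 4 classes of equal size), with the number of genes above each bar. The lowest class, with 3 genes of the first set, is left out. In the highest class 54.7% of the genes of the sites and 40.5% of all genes tested were lower.

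Among the genes whose libraries did not overlap between groups, the largest decrease was in Gad1. Gad1, which makes the transmitter GABA from glutamate, had 2663, 2873 and 3168 CPM in control and 1069, 1106 and 1253 CPM in RNAi brains, a log2 fold change of -1.34 ± 0.13 (SE, edgeR adjusted p = 0.000545). Atpalpha had 12505, 11736 and 13615 CPM in control and 4843, 5915 and 6433 CPM in RNAi brains, or -1.14 ± 0.16 (edgeR adjusted p = 0.00203). Vmat had 1854, 1331 and 1736 CPM and 650, 788 and 907 CPM (-1.07 ± 0.18, edgeR adjusted p = 0.00363). In all of these genes every RNAi library was below every control library. The same held for CG17684, whose decrease was second in size (-1.23), CG31708, an immunoglobulin superfamily gene (-1.06), CG8861 (-0.95), Syngr, the synaptic vesicle protein synaptogyrin (-0.94), and CG13685 (-0.94).

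Of the synaptic vesicle release list, 9 genes held a site and 8 were lower with Atx2 RNAi, and over the whole list 24 of 31 tested genes were lower and 2 higher. Syt7 went from 836, 703 and 713 CPM to 415, 416 and 397 CPM (-0.88 ± 0.11), shi, the dynamin of vesicle endocytosis, changed by -0.91 ± 0.12, and comt, the NSF ATPase that recycles SNARE complexes, by -0.81 ± 0.14. The same direction was seen in Sap47 (-0.81), nSyb, the neuronal synaptobrevin (-0.69), alphaSnap (-0.51) and CG3822 (KaiR1D, a kainate-type glutamate receptor, -0.55 with overlapping groups), and Rab27 (-0.46 ± 0.20, edgeR adjusted p = 0.105) did not pass. The call of CG3822 was lost under library size or upper-quartile scaling and without any RNAi replicate or control replicate 2 or 3. All 5 genes of acetylcholine, GABA and glutamate signalling were lower, namely Gad1, the GABA receptors Rdl (-0.75) and GABA-B-R2 (-0.54), the glutamate receptor GluRIB (-0.51) and Ace (-0.67), beside 31 of 35 tested genes of that list. The call of GABA-B-R2 was lost under library size alone. All 4 monoamine genes were lower, namely Vmat, the vesicular transporter prt (-0.77) and the receptors Dop1R2 (-0.55) and Octbeta3R (-0.55), beside 21 of 26 of that list.

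Of the 12 genes of the adhesion and guidance list with a site, 10 were lower, and 71 of 91 tested genes of the list were. They included klg (-0.77), Lar, a receptor tyrosine phosphatase (-0.67), Sema-2a, a secreted guidance cue (-0.56), and the Beaten path genes beat-Vc (-0.64), beat-VII (-0.61), beat-IIIc (-0.51) and beat-IIa (-0.47). The call of beat-IIa was lost under library size alone. In beat-IIIc the control libraries had 147, 142 and 143 CPM and the RNAi libraries 101, 102 and 99.5 CPM, so a modest change stood clear of the spread. Of the genes with a site in the kinase and phosphatase list, Dyrk2 (-0.92) and the calcineurin gene Pp2B-14D (-0.46) were lower, beside 31 of 64 of that list. Cdep (-0.93), which the list also holds though it is neither a kinase nor a phosphatase, was lower too. The call of Cdep was lost without control replicate 1. None of the 40 matched genes of the list of voltage-gated and other ion channels held a site. The receptor channel genes Rdl, GluRIB and CG3822, which hold sites, were counted in other lists. These lists are sets of neuronal genes, the members were chosen with results of these libraries known, and the shares of the whole lists show that genes without a site fell as well.

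Among the genes that rose and whose libraries did not overlap between groups, Tequila went from 19.7, 10.2 and 13.2 CPM to 340, 385 and 451 CPM, a log2 fold change of 4.78 ± 0.26 (edgeR adjusted p = 0.00013). CG16758 went from 76.3, 74.5 and 72.0 CPM to 291, 175 and 240 CPM (1.66 ± 0.18, edgeR adjusted p = 0.000734). Mtp, the transfer protein that loads lipid onto lipoproteins, went from 32.2, 28.5 and 25.5 CPM to 83.9, 76.7 and 83.1 CPM (1.5 ± 0.11, edgeR adjusted p = 0.00028). All of these RNAi libraries lay above the control libraries, as the summed level of the fat body markers did. The others were Gip (1.41), CG5687 (1.16), Syt14 (1.12), CG11577 (0.80) and Hsp26, a small heat shock protein (0.80). Of these 8 non-overlapping genes, picked by size of change, 4 (Tequila, CG16758, CG5687 and Hsp26) hold their site in a dense window. Of all 246 genes tested, 39 had sites only in these windows, and of the 39, 10 were lower and 9 higher.

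**Figure D5:**
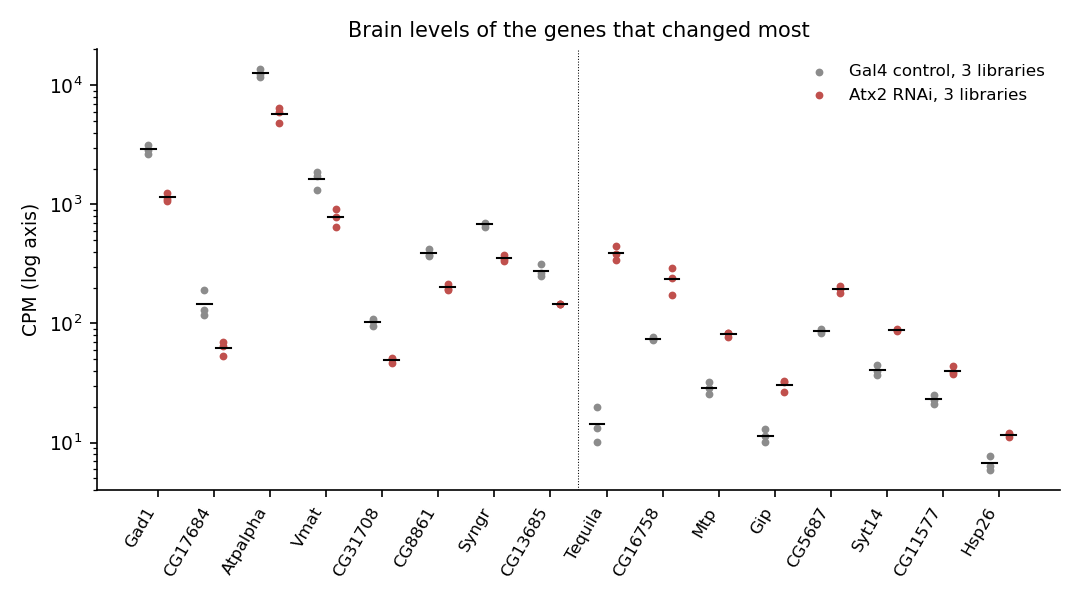
CPM on a log axis of the 8 genes with the largest decrease (left of the dotted line) and the 8 with the largest increase among genes called whose groups do not overlap, in 3 Gal4 control (grey) and 3 Atx2 RNAi (red) brain libraries, with bars at the group means. Akh (1.40), whose groups overlap, is therefore not drawn, and Tequila shows the largest difference, from 10.2 to 19.7 CPM up to 340 to 451 CPM.

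Peptide genes with a site did not follow the transmitter genes. Capa, which encodes diuretic and pyrokinin peptides, went from 52.8, 76.0 and 52.7 CPM to 86.3, 93 and 99.9 CPM (0.62 ± 0.16, edgeR adjusted p = 0.0172). Akh went from 30.6, 45.9 and 27.4 CPM to 154, 39.5 and 81.9 CPM (1.40 ± 0.45, edgeR adjusted p = 0.0396), and its groups overlapped. The call of Akh was lost without replicate 1 or 3 of the RNAi libraries or of the control, and that of Capa without replicate 3 of either group. The third, ITP, did not pass. Over the whole peptide list 17 of 33 tested genes were higher and 4 lower. Prosbeta3 (0.47), a proteasome subunit, and Uch (0.39), a ubiquitin hydrolase, were higher, while Traf6 was not called. Of the 60 tested genes of the ubiquitin and proteasome list, 16 were higher and 5 lower, beside 23.1% higher and 18.6% lower among all genes tested. The call of Prosbeta3 was lost without RNAi replicate 1 or 3 or control replicate 3, and that of Uch with DESeq2, without the filter on low counts, and without RNAi replicate 1 or 3 or control replicate 1 or 2. Of the genes for Atx2 partners and translational control, bol, an RNA-binding protein, was lower (-0.55), a call lost under library size alone and without any 1 RNAi replicate, Syp had 0.24 ± 0.16 and did not pass, and 11 of 32 tested genes of that list were lower and 3 higher. No gene of these sites in the lists for membrane traffic or for neuronal transcription passed the test, and in the lipid list only Mtp did. The values were -0.36 ± 0.13 for Cct1 (Pcyt1) and -0.42 ± 0.17 for Lpin. SamDC, which that list also holds though it is an enzyme of polyamine synthesis, had 0.30 ± 0.14.

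In S2 cells the Atx2 count went against the labels. Atx2 had 228, 227 and 232 CPM in the mock libraries and 1002, 686 and 841 CPM in the libraries labelled Atx2 RNAi, a log2 fold change of 1.88 ± 0.09 (edgeR adjusted p = 5.3e-11). The directions below are those of the libraries labelled Atx2 RNAi, and whether reads of the transfected double-stranded RNA were counted was not tested. Of the 197 genes of these sites tested, 41 (20.8%) were lower and 23 (11.7%) higher, Atx2 among the latter. Over all 7567 genes tested, 14.7% were lower and 14.4% higher, and the medians were -0.03 and 0.01. The groups did not overlap in 56 genes that were lower (all genes 22%) and 31 that were higher (all genes 21.8%). The changes were small, with a median size of 0.17 on the log2 scale among the genes called. Upper-quartile scaling turned the balance to 24 lower and 28 higher, and among all genes to 788 lower and 1438 higher. Without replicate 1 of both groups 10 were lower and 5 higher, without mock replicate 3 alone 27 and 15, and 14 were higher without mock replicate 1 and 15 without Atx2 RNAi replicate 1. DESeq2 called 27 and 12.

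Of the 8 synaptic genes that fell in brain, nSyb and CG3822 did not pass the filter on low counts in S2 cells and none of the others passed the test. Gad1, Vmat, Rdl and Ace did not pass that filter either. The largest decreases were in CG11638 (8.29, 8.91 and 11.8 CPM in mock and 7.45, 6.83 and 6.80 CPM in libraries labelled Atx2 RNAi, -0.48 ± 0.14), CG14982 (-0.48 ± 0.12), toc (-0.38 ± 0.14) and CG3638 (-0.30 ± 0.05). Of these, the first 3 were lower in brain too, with -0.42, -0.51 and -0.50, while CG3638 had -0.33 ± 0.16 there and did not pass. The S2 call of toc was lost with DESeq2, with upper-quartile scaling and without any 1 library, and its brain call without control replicate 3. The S2 call of CG11638 was lost with DESeq2 and without mock replicate 3, and its brain call without any RNAi replicate or control replicate 2 or 3. Library size alone ended the brain calls of CG11638, CG14982 and toc. Besides Atx2, the largest increases were in rgn, a C-type lectin named for regeneration (21.7, 22.9 and 26.9 CPM to 52.1, 49.1 and 43.3 CPM, 1 ± 0.08), Hsp26 (0.50 ± 0.12), Gip (0.28 ± 0.06) and CG40178 (0.23 ± 0.06), and the calls of Hsp26 and CG40178 were lost with DESeq2 and that of CG40178 without mock replicate 3. rgn was lower in brain (-0.41 ± 0.11), a call lost under library size alone and without RNAi replicate 1 or 3 or control replicate 2 or 3. Of the 196 genes of these sites tested in both tissues, 29 (14.8%) were called in both, beside 12.1% of all 7019 genes tested in both, and of the 29, 13 were lower in both, 12 higher in both and 4 opposite.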

How the data were processed

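Edited positions were analysed in 12 TRIBE libraries and gene counts in 12 RNA-seq libraries, grouped by the submitters' labels. Of 33 samples, 9 had no file used here. The members and gene lists were chosen with earlier results of these data known.

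The percent values deposited by the authors rest on TopHat2 alignments to dm6, a comparison with control brains at every position, and minimums of 20 reads and 15% editing. Positions were matched by chromosome and end (1-based). They were placed on the Ensembl 115 annotation (BDGP6.54), which has the coordinates of dm6, with 3′UTR before coding sequence before 5′UTR before intron. Of the 259 genes, 258 were matched, 46 by an older symbol. Wilson intervals cover counting error only. The genome sequence was not used here, so no bases around the sites are shown.

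The counts were deposited by the authors, who used STAR and HTSeq with the strand of the gene, without normalization. Reads not assigned to a gene, for whatever reason (13.5% to 34.6% of a library), were left out. Depth was 11169973 to 16108727 counts per library. The test was that of edgeR 4.0.16, run in R 4.3.3 (TMM, filterByExpr with a minimum of 10 counts, quasi-likelihood test, Benjamini-Hochberg over all genes tested), in brain and S2 cells separately, and in 1 fit of 12 libraries for the difference between them. In data simulated with 200 changed genes, the step recovered 82% of changes of 1 log2 unit and 100% of those of 2 log2 units among 9197 brain genes, with 11 false calls. Each pair of replicates differed beyond sampling noise. No label says that replicates came from separate crosses or cultures, so p-values measure the spread between these libraries. Alternatives were higher edit minimums, other scalings and filters, DESeq2 1.42.0, replicate blocks and fits without each replicate or library.

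Genes and sites were named by a rule: the highest, lowest and most repeated sites, sites common to other forms, the genes with the largest changes and levels, members of function lists, genes with several WT sites, and Atx2. The dense windows, and the grouping of 4 sites on arm 3R, were chosen after values were seen. Of the sites the rule names, 1 is not reported here.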

Additional observations from a re-analysis of the deposited data

Results flagged for a closer look

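The genes below are listed because their change with Atx2 RNAi differed between brain and S2 cells in the interaction term of an edgeR fit over all 12 RNA-seq libraries. Of the 247 genes of these sites in that fit, 61 (24.7%) had an adjusted p under 0.05, about the same share as the 25.4% of all genes, so such differences are not particular to these genes. Values are the S2 change minus the brain change on the log2 scale.

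Among genes that fell in brain the difference was positive, with 1.09 for Atpalpha, 1.02 for Syngr, 0.96 for comt, 0.87 for shi, 0.84 for Cdep, 0.82 for Sap47, 0.77 for Dyrk2, 0.72 for Lar, 0.48 for alphaSnap and 0.38 for Pp2B-14D. It was 1.42 for rgn, which was lower in brain and higher in the S2 libraries labelled Atx2 RNAi, and 0.61 for CG40178. Atx2 itself had 2.22, since its count rose in the S2 libraries labelled Atx2 RNAi. Among genes that rose in brain it was -5.16 for Tequila, -1.90 for CG16758, -1.37 for Mtp, -1.14 for Gip, -1.10 for Syt14 and -0.67 for CG11577. For mod(mdg4) it was -0.37. The calls of Cdep, Pp2B-14D and CG40178 were lost under scaling by library size alone.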

How the results depend on the processing

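Raising the edit minimum to 20% or 30% left 101 or 21 sites, and leaving out 1 WT or Atx2∆Lsm library gave 234 to 689. The share of sites common to another form, counted in at least 1 library of that form, was 41.7% for Atx2∆LsmAD, 35.5% for Atx2∆mIDR, 7.25% for Atx2∆cIDR and 10.5% for Lsm+LsmAD, and with a 20% minimum 19.8%, 15.8%, 9.90% and 6.93%. Without 1 library of the form the ranges were 23.2% to 32.2%, 14.1% to 31.9%, 5.07% to 6.16% and 6.52% to 7.25%. The Lsm+LsmAD share was 0.446% without the dense windows, an alternative chosen after seeing the data. Sites in neither WT library had 50.3% in 3′UTRs and 43.7% in coding sequence, and 45.2% and 48.7% with coding sequence placed before 3′UTR.

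In brain, library size alone gave 57 lower and 59 higher genes of these sites and 935 lower genes in all. Leaving out replicates or single libraries gave 29 to 97 lower and 9 to 35 higher genes of these sites, and 478 to 1816 lower and 853 to 2154 higher in all. In S2 cells DESeq2 gave 27 lower and 12 higher and 618 higher in all, and upper-quartile scaling gave 24 lower. Leaving out libraries gave 10 to 43 lower and 5 to 24 higher, and 340 to 1190 lower and 327 to 1152 higher in all. The cause was not tested.

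Same-numbered libraries did not deviate together (correlations -0.198 to -0.040 in brain and -0.077 to 0.058 in S2 cells), so the numbers do not pair them. With a replicate block 70 genes of these sites were lower and 25 higher in brain (all genes 1210 and 1641), and 34 and 19 in S2 cells (all genes 965 and 961). For single named genes, 925 values under an alternative kept their direction and side of the threshold, 172 kept the direction and lost the call, 15 gained one, and 0 reversed. Named calls lost without replicate 1, 2 or 3 of both groups numbered 15, 18 and 37. The deposited lists used here hold no read numbers, and edits under the minimums were not used here.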
